A study of Mus musculus with 7 samples.

Results

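Cholesterol and fatty acid synthesis genes were followed as a set of 34 mouse genes chosen by name. The set holds the enzymes that build cholesterol from acetyl-CoA, the sterol regulatory element-binding proteins (SREBPs) with the proteins that hold or escort them, a sterol carrier, and the enzymes that make, lengthen and desaturate fatty acids. Of the 34 genes, 33 were measured among 20859 genes in the deposited count table, and Fdps, farnesyl diphosphate synthase, was not analysed here. In cortex 32 of the 33 passed the filter on low counts, Idi1 being the exception, and in hippocampus all 33 passed.

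Counts came from mcSCRB-seq, a pooled bulk RNA assay that tags the 3′ ends of transcripts, and longer transcripts do not give more counts for their length. The 47 wells, in 7 library pools, held cortex or hippocampus RNA of 24 mice, and the study's title names CD38, an enzyme that consumes NAD, as a target in mice modelling Alzheimer's disease. FAD CD38 mice carried the FAD genotype and were listed under the injection CD38, with 7 mice in each region. FAD IgG mice carried the same genotype and were listed under IgG, also with 7 mice in each region. WT mice were wild type and were listed under PBS, with 9 mice in cortex and 8 in hippocampus. FAD and WT mice thus differed in genotype and in what was injected, and the 2 cannot be told apart. The labels give no age, sex, transgene, promoter or antibody clone. For 1 further mouse the well name gave IgG and the sample sheet CD38, so of the main comparisons it entered only that of hippocampus with cortex. Alternative analyses placed it in a group by either label.

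Cells make cholesterol from acetyl-CoA through mevalonate, squalene and lanosterol, and fatty acids through malonyl-CoA. The genes of both routes are switched on together by SREBPs, which are held in the endoplasmic reticulum by INSIG proteins when sterols are plentiful and are carried to the Golgi by SCAP when sterols are scarce. In the brain cholesterol does not cross the barrier from blood, so it is made locally, by astrocytes in the adult and by oligodendrocytes for myelin. SREBF1 mainly drives fatty acid genes and is itself a target of liver X receptors, while SREBF2 mainly drives cholesterol genes.

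Total counts per well lay between 1270918 and 5101368. Ribosomal RNA took over 2 times the region's median share in 2 FAD IgG wells of cortex (10.6 to 12.4%). It did so too in 1 FAD IgG well of hippocampus (12.8%) and 1 WT well of hippocampus (17.2%). The other wells had 2.78 to 8.99% in cortex and 3.09 to 9.18% in hippocampus. The mitochondrial share of the same wells was high for their groups. It was 15.22 and 18.83% in those of cortex, against at most 10.86% in other FAD IgG cortices. Cortices of the other groups reached 16.21% (FAD CD38) and 16.15% (WT). In hippocampus the FAD IgG well had 17.84%, against at most 13.67% in others of its group. The WT well had 21.38%, against at most 11.11%. Mitochondrial ribosomal RNA was counted in both shares. The 2 shares thus overlap by definition, and their agreement is not a separate observation. How much of the ribosomal share was mitochondrial ribosomal RNA was not tested. In cortex the median mitochondrial share was 13.61% in WT, 10.52% in FAD CD38 and 10.06% in FAD IgG mice. The median ribosomal share there was 5.949, 4.675 and 4.835% in the same order. The part of these differences between groups in the cortical results was not tested. Choroid plexus markers, a sign of tissue taken with the dissection, summed to over 10 times the region's median in 1 FAD CD38 well of cortex (1636 CPM, counts scaled to a common total per well), 1 FAD CD38 well of hippocampus (15610 CPM) and 1 FAD IgG well of hippocampus (8824 CPM). All 12 oligodendrocyte markers, all 10 homeostatic astrocyte markers and all 9 neuron markers in the table were counted in every well of both regions. In bulk tissue, a change in the number of cells of a type and a change in RNA per cell cannot be told apart.

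Promoter sequence is shown for members that illustrate how far the set shares motifs beside the start of transcription, since SREBPs act there together with the CCAAT-binding factor NF-Y and with Sp1. Sequences are those of RefSeq on build GRCm38.p6, from 250 bases before to 50 bases after the annotated start, and 27 of the 34 members matched with 35 promoters. Capitals mark the sterol response element TCACNCCAC and the CCAAT box (ATTGG or CCAAT, either strand); the CCAAT box is the site of NF-Y. Hmgcs1 (chr13:119690101-119690400, plus strand) held the element 137 bases before its start, with 4 CCAAT boxes. Mvk (chr5:114444019-114444318, plus strand) held 5 CCAAT boxes, and the downstream-most of 3 annotated Srebf1 starts (chr11:60210422-60210721, minus strand) held 1.
Hmgcs1: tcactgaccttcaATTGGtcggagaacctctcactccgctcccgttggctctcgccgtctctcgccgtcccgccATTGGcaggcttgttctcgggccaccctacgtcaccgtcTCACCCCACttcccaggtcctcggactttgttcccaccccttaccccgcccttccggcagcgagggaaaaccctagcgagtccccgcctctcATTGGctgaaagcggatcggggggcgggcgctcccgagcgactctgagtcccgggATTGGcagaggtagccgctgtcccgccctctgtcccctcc
Mvk: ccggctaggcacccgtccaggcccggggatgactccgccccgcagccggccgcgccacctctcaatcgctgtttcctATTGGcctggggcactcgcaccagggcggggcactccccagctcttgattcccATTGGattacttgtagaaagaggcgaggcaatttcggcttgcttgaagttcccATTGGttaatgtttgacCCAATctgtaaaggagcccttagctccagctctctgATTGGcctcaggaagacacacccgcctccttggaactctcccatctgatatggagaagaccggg
Srebf1: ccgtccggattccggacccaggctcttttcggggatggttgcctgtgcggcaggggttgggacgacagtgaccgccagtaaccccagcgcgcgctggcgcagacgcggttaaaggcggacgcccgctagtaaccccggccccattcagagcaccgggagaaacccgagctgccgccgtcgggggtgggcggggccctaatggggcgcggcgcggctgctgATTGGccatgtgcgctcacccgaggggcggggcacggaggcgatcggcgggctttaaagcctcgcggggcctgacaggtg
The sterol response element as spelled was found on either strand in 1 of the 35 promoters (2.86%), that of Hmgcs1, against 1.24% of 32851 promoters of all genes. The CCAAT box was found in 23 of 35 (65.7%, against 37.4% of all promoters), the GC box GGGCGG, a site of Sp1, in 25 of 35 (71.4%, against 35.7%) and the E-box CACGTG in 7 of 35 (20%, against 7.15%). Each motif was counted on its own, whether or not its match overlapped another, and the promoters of Acaca and Elovl6 and 1 of the 2 of Pmvk held none of the 4. The shares describe letters in these windows and no binding was measured.

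Comparing FAD IgG mice with WT mice addressed what the FAD genotype, with its injection, did to the set. Srebf1 and Stard4, which encodes a carrier that moves cholesterol between membranes, rose in hippocampus, and Stard4, Mvk and Acaca rose in cortex; none fell. By edgeR's quasi-likelihood test with Benjamini-Hochberg adjustment over all genes, 2 of 33 members rose in hippocampus, where 4.48% of all genes tested did, and 3 of 32 rose in cortex, where 3.34% of all genes did. The set's log2 fold changes were mostly above 0 without passing the test: 25 of 33 in hippocampus with a median of 0.33, beside a median of 0.00 over all genes, and 24 of 32 in cortex with a median of 0.16, beside 0.01. Of all genes, 50.5% lay above 0 in hippocampus and 51.7% in cortex. At an unadjusted p under 0.05 stood 17 of 33 members in hippocampus, where 14.5% of all genes did, and 9 of 32 in cortex, where 15.1% did. The count in hippocampus depended on the tool: DESeq2 called 4 members, where it called 6.15% of all genes, and voom with sample quality weights called 16, where it called 15.1% of all genes.

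Among the regulators, Srebf1 in hippocampus had 22.98 CPM in the lowest, 27.6 in the median and 29.2 in the highest FAD IgG mouse, against 11.5, 14.7 and 18.2 CPM in the lowest, median and highest WT mouse. Every FAD IgG mouse lay above every WT mouse, and within each of the 6 pools that held both groups the FAD IgG level was higher. The log2 fold change was 0.86 ± 0.13 (SE, 7 and 8 mice, adjusted p = 9.61e-05), and it kept its call in all 21 alternative analyses, with adjusted p between 7.94e-08 and 0.0267. In cortex Srebf1 had 14.95, 17.2 and 26.3 CPM in FAD IgG mice and 6.73, 11.7 and 17.4 CPM in WT mice, in the same order. There the groups overlapped and the log2 fold change of 0.51 ± 0.19 did not pass (adjusted p = 0.149).

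The paralog Srebf2 was not called in either region. In hippocampus Srebf2 had 34.8, 40.7 and 44.0 CPM in the lowest, median and highest FAD IgG mouse and 32.2, 40.9 and 44.9 CPM in WT mice, with a log2 fold change of 0.04 (95% interval -0.23 to 0.30). In cortex it had 41.7, 47.1 and 61.5 CPM in FAD IgG mice and 39.2, 49.2 and 61.6 CPM in WT mice, with a log2 fold change of -0.01 (-0.24 to 0.22). The Srebf2 groups overlapped almost completely in both regions; the difference between Srebf1 and Srebf2 was not itself tested. Insig1, a sensor that retains SREBPs and is itself induced by them, had 39.1, 51.1 and 79.3 CPM in FAD IgG hippocampi and 36.6, 42.2 and 51.0 CPM in WT hippocampi (log2 fold change 0.32 ± 0.15, adjusted p = 0.323). In cortex Insig1 had 48.4, 54.5 and 101 CPM in FAD IgG mice and 52.3, 62.0 and 67.8 CPM in WT mice (0.05 ± 0.14, adjusted p = 0.919). The highest Insig1 value in both regions came from the same FAD IgG mouse of pool 9, whose 2 wells were among those of high ribosomal share and whose hippocampal well was high in choroid plexus markers. The next highest FAD IgG values were 54.3 CPM in hippocampus and 76.9 CPM in cortex. Scap and Insig2, the escort and the second anchor, had log2 fold changes between -0.28 and -0.04 in the 2 regions, and neither passed.

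Stard4 had 13.9, 19.0 and 22.9 CPM in the lowest, median and highest FAD IgG hippocampus and 8.83, 11.3 and 16.98 CPM in WT hippocampi, a log2 fold change of 0.64 ± 0.16 (adjusted p = 0.0177). In cortex it had 16.8, 23.8 and 27.5 CPM in FAD IgG mice and 11.4, 15.4 and 18.4 CPM in WT mice (0.58 ± 0.17, adjusted p = 0.0495). Stard4 was higher in FAD IgG mice within each of 6 pools in both regions, although single mice of the groups overlapped. The calls were less steady than that of Srebf1. Of 21 alternatives, 5 lost the hippocampal call and 11 the cortical one, with adjusted p reaching 0.651 in hippocampus when the level of homeostatic astrocyte markers was added as a covariate and 0.265 in cortex without the wells of high ribosomal share.

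Of the mevalonate enzymes, Mvk, mevalonate kinase, had 21.2, 28.4 and 35.5 CPM in the lowest, median and highest FAD IgG cortex and 18.01, 21.8 and 24.6 CPM in WT cortices. In 6 of 7 FAD IgG mice the level was above all WT mice, and the log2 fold change was 0.50 ± 0.14 (adjusted p = 0.0375). That call was lost in 6 of 21 alternatives, with adjusted p up to 0.143. In hippocampus Mvk had 20.1, 29.8 and 37.9 CPM in FAD IgG mice and 13.6, 19.2 and 28.3 CPM in WT mice, a log2 fold change of 0.47 ± 0.15 that did not pass (adjusted p = 0.107). Hmgcs1, which makes HMG-CoA, had 103, 139 and 161 CPM in FAD IgG hippocampi and 67.9, 101 and 117 CPM in WT hippocampi. There 6 of 7 FAD IgG mice lay above all WT mice and all 6 pools ran the same way, yet the log2 fold change of 0.44 ± 0.13 missed the threshold (adjusted p = 0.0644). In cortex Hmgcs1 had 111, 131 and 155 CPM in FAD IgG mice and 102, 120 and 156 CPM in WT mice, with a log2 fold change of 0.04 (95% interval -0.26 to 0.34).

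The remaining mevalonate enzymes did not pass in either region. Mvd, which decarboxylates mevalonate diphosphate, had 14.0, 19.0 and 22.0 CPM in FAD IgG hippocampi and 9.88, 14.3 and 18.8 CPM in WT hippocampi, and 11.0, 19.8 and 23.9 CPM in FAD IgG cortices beside 10.1, 16.02 and 19.6 CPM in WT cortices. Idi1, the isopentenyl diphosphate isomerase, was counted at 0.993, 3.89 and 9.95 CPM in FAD IgG hippocampi and 1.15, 2.67 and 8.23 CPM in WT hippocampi, which were 4 to 33 counts and 4 to 20 counts per well. Its interval, -0.54 to 1.56 on the log2 scale, was the widest of the set. In cortex, where Idi1 was not tested, it had 0.450, 2.72 and 7.77 CPM in FAD IgG mice and 1.04, 1.43 and 4.57 CPM in WT mice. Without the 2 FAD IgG wells of high ribosomal share, FAD IgG cortices had 0.450, 0.985 and 3.28 CPM, with a median below that of WT cortices. Acat2, Pmvk and Ggps1, which open the pathway, add the second phosphate to mevalonate and make geranylgeranyl diphosphate, had log2 fold changes between -0.13 and 0.26 over both regions.

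The enzymes from squalene onward gave no call in either region alone. Fdft1, squalene synthase, had 99.1, 135 and 153 CPM in FAD IgG hippocampi and 53.9, 93.4 and 128 CPM in WT hippocampi (log2 fold change 0.47 ± 0.14, adjusted p = 0.0551). In cortex Fdft1 had 87.3, 164 and 186 CPM in FAD IgG mice and 87.1, 112 and 140 CPM in WT mice (0.40 ± 0.14, adjusted p = 0.147). Sqle, squalene epoxidase, had 57.1, 89.6 and 105 CPM in FAD IgG hippocampi and 33.3, 59.6 and 86.3 CPM in WT hippocampi (0.47 ± 0.17, adjusted p = 0.141), and 58.2, 86.9 and 89.7 CPM in FAD IgG cortices against 52.9, 69.8 and 87.1 CPM in WT cortices (0.13 ± 0.12). For both enzymes the FAD IgG medians exceeded the WT medians in each region while the ranges overlapped. Lss, lanosterol synthase, completed a group of 3 whose log2 fold changes all lay above 0, with medians of 0.47 in hippocampus and 0.40 in cortex. Of the 8 enzymes after lanosterol (Cyp51, Tm7sf2, Msmo1, Nsdhl, Hsd17b7, Ebp, Sc5d and Dhcr7), which strip methyl groups and shift or reduce double bonds to reach cholesterol, 0 passed, with log2 fold changes from -0.09 to 0.62 in hippocampus and from -0.19 to 0.38 in cortex.

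Among fatty acid enzymes, Acaca, acetyl-CoA carboxylase, which commits acetyl-CoA to fatty acids, had 18.5, 22.0 and 29.1 CPM in FAD IgG cortices and 11.9, 14.9 and 20.6 CPM in WT cortices. All 6 pools ran higher in FAD IgG mice and the log2 fold change was 0.54 ± 0.13 (adjusted p = 0.0157). The call was lost in 3 of 21 alternatives, with adjusted p up to 0.170 without the wells of high ribosomal share. In hippocampus Acaca had 14.2, 17.5 and 22.4 CPM in FAD IgG mice and 9.92, 14.8 and 16.4 CPM in WT mice (0.35 ± 0.14, adjusted p = 0.209). Fasn, fatty acid synthase, had 43.1, 59.4 and 71.3 CPM in FAD IgG hippocampi and 35.8, 47.0 and 53.6 CPM in WT hippocampi (0.28 ± 0.12, adjusted p = 0.274), and 44.9, 57.1 and 71.6 CPM in FAD IgG cortices against 29.3, 48.6 and 61.6 CPM in WT cortices (0.25 ± 0.14, adjusted p = 0.440). Acly, which supplies cytosolic acetyl-CoA, had log2 fold changes of 0.35 and 0.17 in hippocampus and cortex, so all 3 synthesis genes lay above 0 in both regions and 1 call was made.

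The elongases and desaturases gave no call. Scd2, the main stearoyl-CoA desaturase of mouse brain, had 378, 487 and 551 CPM in FAD IgG hippocampi and 285, 356 and 495 CPM in WT hippocampi (log2 fold change 0.42 ± 0.14, adjusted p = 0.122), and 307, 416 and 635 CPM in FAD IgG cortices against 313, 384 and 560 CPM in WT cortices. Its paralog Scd1 had 25.9, 33.95 and 51.8 CPM in FAD IgG hippocampi and 22.0, 24.7 and 54.8 CPM in WT hippocampi, and 29.4, 41.1 and 60.8 CPM in FAD IgG cortices beside 30.01, 43.4 and 47.1 CPM in WT cortices. In hippocampus every FAD IgG mouse lay above the WT median for both genes, while in cortex the FAD IgG range reached past the WT range at both ends. These ranges include the wells of high ribosomal share. Without them the highest FAD IgG cortex had 438 CPM of Scd2 and 48.4 CPM of Scd1. The hippocampal ranges of Scd2 were then 378 to 544 CPM in FAD IgG and 285 to 376 CPM in WT mice. Those of Scd1 were 25.9 to 40.9 CPM and 22.0 to 26.7 CPM. Fads1 and Fads2, which desaturate polyunsaturated fatty acids, differed in sign without passing: Fads1 had 109, 132 and 171 CPM in FAD IgG hippocampi and 73.3, 153 and 180 CPM in WT hippocampi, with 135, 209 and 280 CPM in FAD IgG cortices beside 198, 209 and 274 CPM in WT cortices. Fads2 had 105, 119 and 139 CPM in FAD IgG hippocampi and 84.8, 109 and 119 CPM in WT hippocampi, with 74.7, 120 and 132 CPM in FAD IgG cortices beside 75.2, 94.2 and 120 CPM in WT cortices. Their log2 fold changes were -0.11 and 0.18 in hippocampus and -0.16 and 0.18 in cortex. Elovl5 (0.44 and 0.23 in hippocampus and cortex) and Elovl6 (-0.19 and 0.15), which lengthen polyunsaturated and saturated chains, did not pass either.

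**Figure D1:**
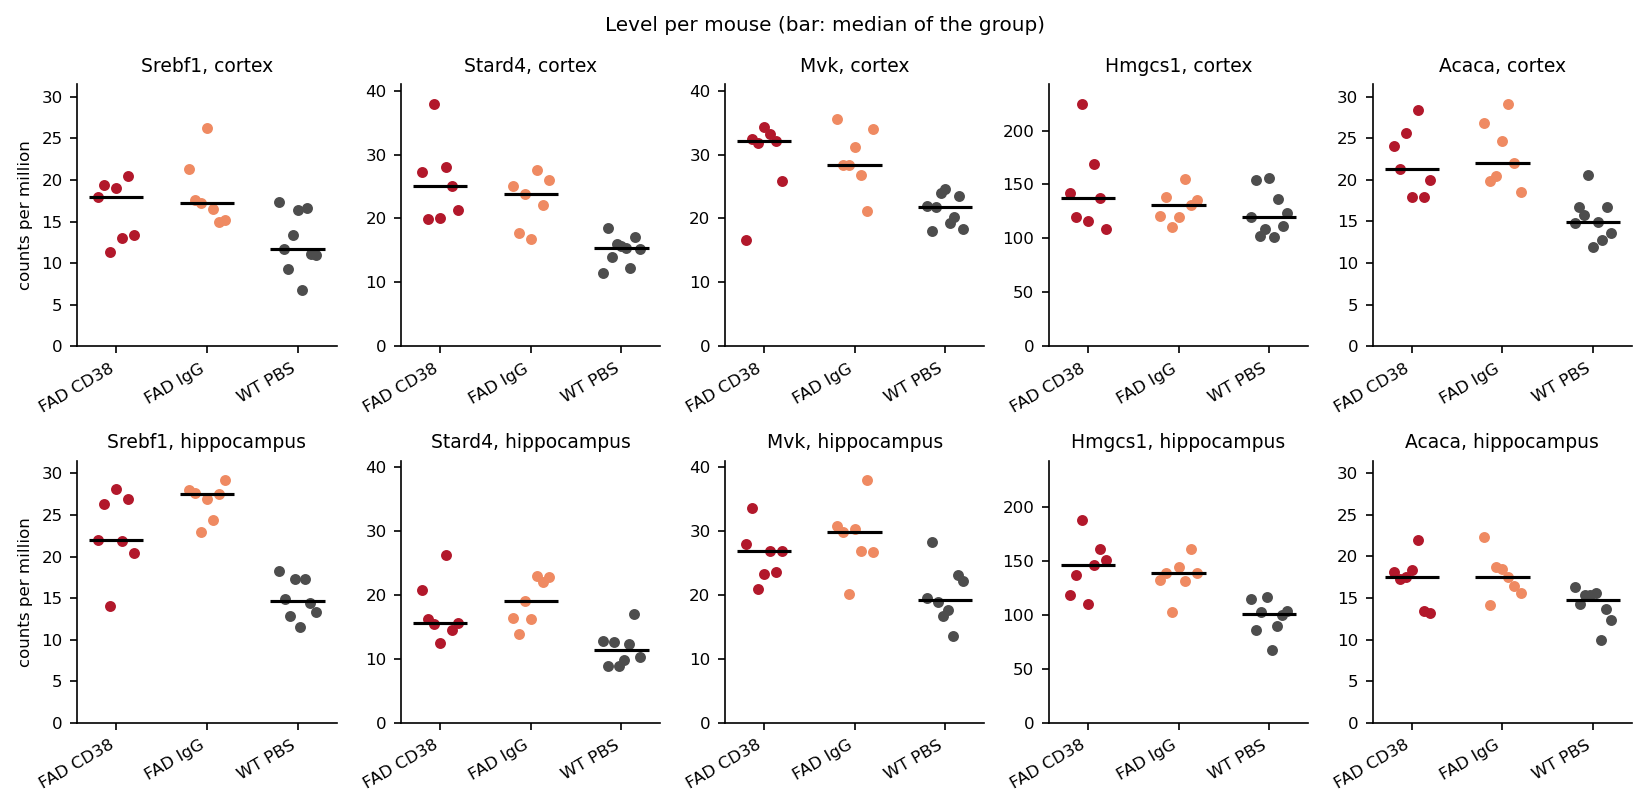
CPM of Srebf1, Stard4, Mvk, Hmgcs1 and Acaca in each mouse, with FAD CD38, FAD IgG and WT mice from left to right, cortex in the upper row and hippocampus in the lower; each point is 1 mouse and each bar the group's median. In hippocampus every FAD IgG mouse lies at or above 22.98 CPM for Srebf1 and every WT mouse at or below 18.2 CPM, while the other panels show groups that overlap in part, apart from Stard4 in FAD CD38 cortices.

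**Figure D2:**
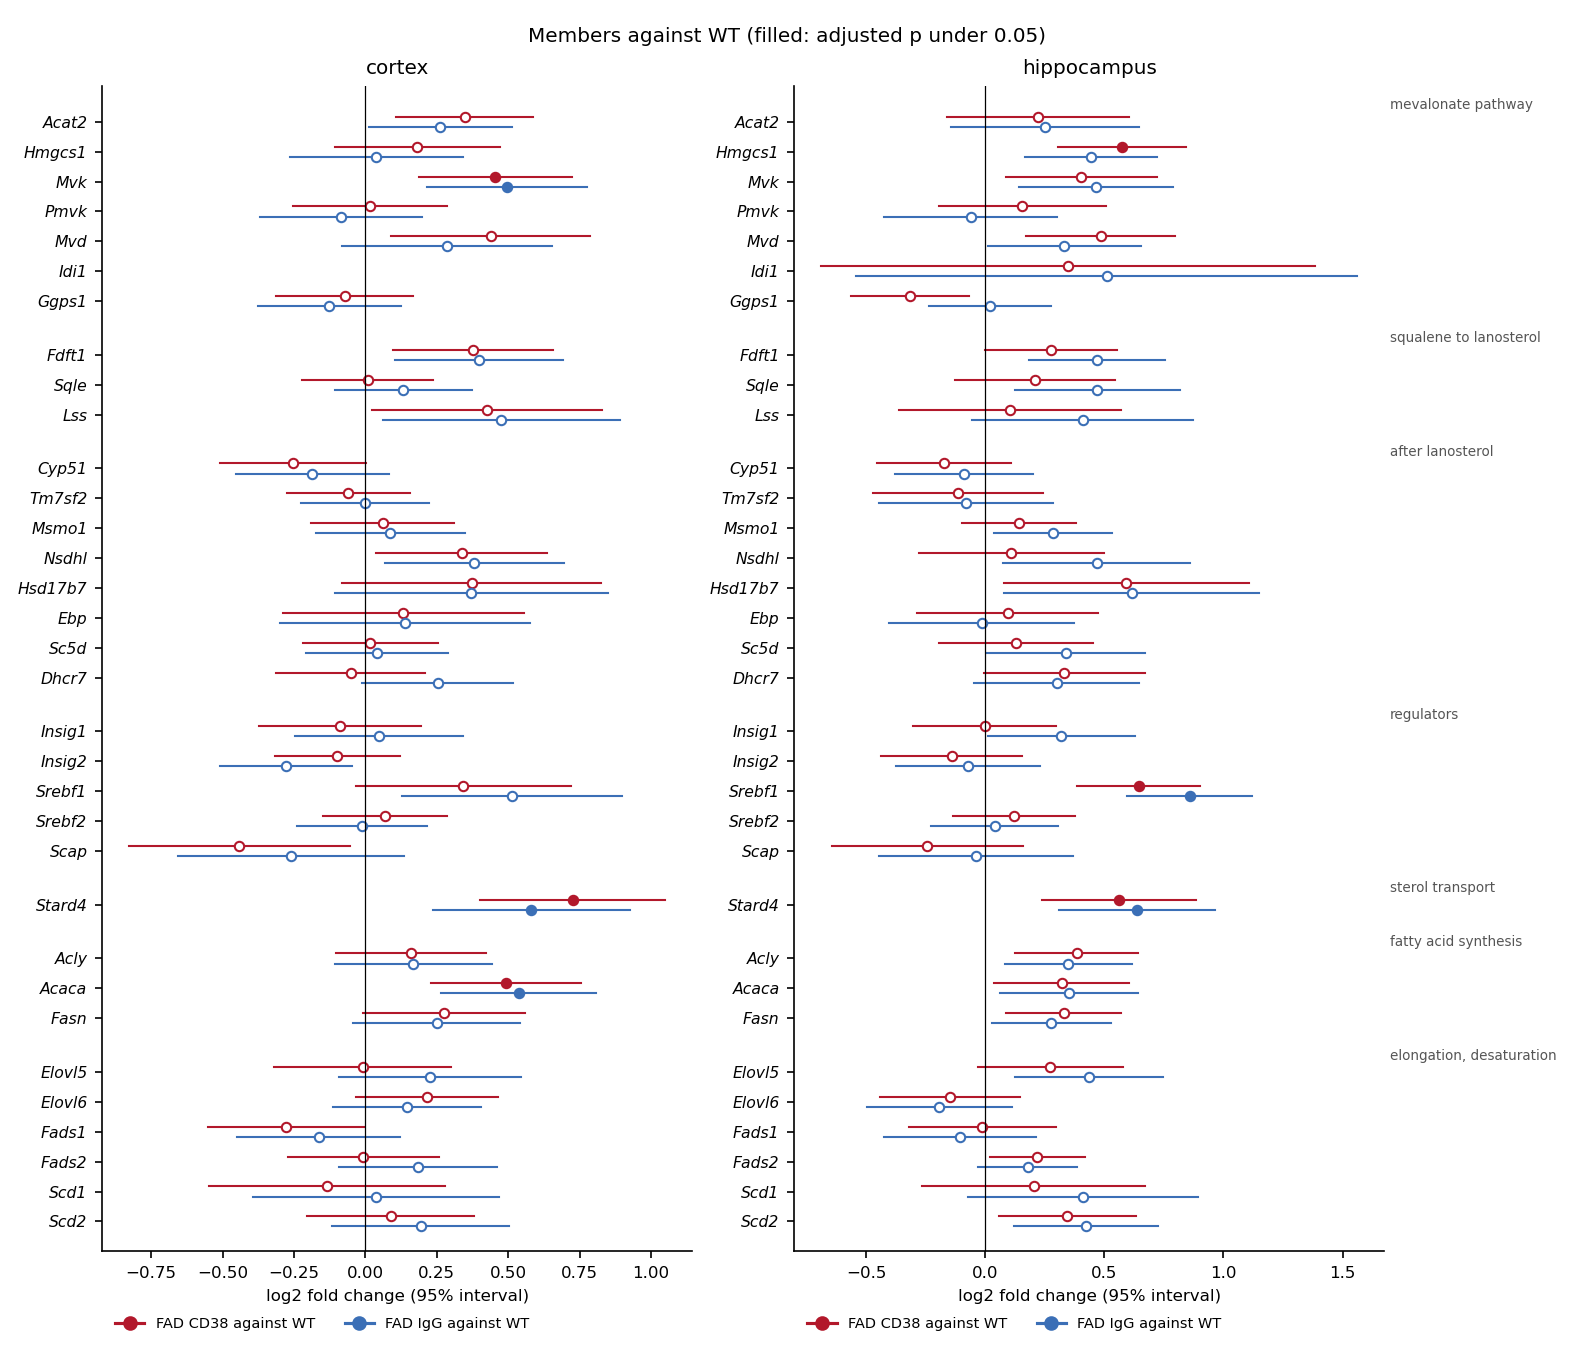
Log2 fold changes of each member against WT in cortex (left) and hippocampus (right), with 95% intervals, for FAD CD38 mice in red and FAD IgG mice in blue; filled points passed at an adjusted p of 0.05 over all genes. Most points lie right of 0 and few are filled, Srebf1 at 0.86 in FAD IgG hippocampi being the farthest. Both contrasts use the same WT mice.

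Cell markers moved with the same contrast. Between FAD IgG and WT mice, 10 of 10 plaque-associated microglia markers rose in both regions (median log2 fold changes 2.88 in hippocampus and 2.76 in cortex), as did 9 of 10 homeostatic microglia markers in hippocampus and 8 of 10 in cortex, and 8 of 8 reactive astrocyte markers in hippocampus and 6 of 7 in cortex. Homeostatic microglia markers summed to 1218 to 1631 CPM in FAD IgG hippocampi and 286 to 440 CPM in WT hippocampi, without overlap. Homeostatic astrocyte markers rose in 3 of 10 in hippocampus and 1 of 10 in cortex, with sums of 3042 to 4657 CPM in FAD IgG hippocampi and 2927 to 4388 CPM in WT hippocampi. Oligodendrocyte markers rose in 1 of 12 in each region, with sums of 3906 to 6647 CPM in FAD IgG hippocampi and 3103 to 5342 CPM in WT hippocampi, and neuron markers in 0 of 9. Striatal markers, which track how much tissue below the cortex was taken, summed to 205 to 672 CPM in FAD IgG cortices and 384 to 806 CPM in WT cortices. None of the 9 was called, but all were lower in FAD IgG cortices, by log2 fold changes from -1.02 to -0.26 (median -0.78). The part of this dissection difference in the cortical calls was not tested. With the level of homeostatic astrocyte markers as a covariate, edgeR gave Srebf1 in hippocampus a log2 fold change of 0.90 (adjusted p = 0.0267). In the same fit Stard4 in hippocampus had an adjusted p of 0.651. With the level of oligodendrocyte markers as the covariate, edgeR gave Srebf1 there 0.83 (adjusted p = 0.00104). Reactive astrocyte and microglia markers were not used as covariates, and the part of any of these cell types in the results was not tested.

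The comparison of FAD CD38 with FAD IgG mice addressed what the CD38 injection did in mice of the same genotype. No member was called in either region: edgeR's quasi-likelihood test called 0 of 32 members in cortex and 0 of 33 in hippocampus, as it called 0 (0%) of all genes in each. DESeq2 and voom with sample quality weights, like every other alternative tried, also called 0 members. At an unadjusted p under 0.05 stood 1 of 32 members in cortex, where 1.5% of all genes did, and 2 of 33 in hippocampus, where 1.55% did. The members' median log2 fold change was -0.03 in cortex and -0.07 in hippocampus, with 11 members above 0 in each region. Of all genes, 48.7% lay above 0 in cortex and 51.5% in hippocampus.

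By edgeR's test without adjustment, Dhcr7, the last reductase of the cholesterol route, had a log2 fold change of -0.30 ± 0.13 in cortex (unadjusted p = 0.0324). In hippocampus Ggps1 had -0.33 ± 0.12 (unadjusted p = 0.0144) and Insig1 -0.32 ± 0.15 (unadjusted p = 0.0435). All 3 had an adjusted p of 0.9998 or 0.9999. Insig1 had 37.4, 38.5 and 50.6 CPM in the lowest, median and highest FAD CD38 hippocampus, against 39.1, 51.1 and 79.3 CPM in FAD IgG hippocampi. Of the FAD CD38 mice 4 of 7 lay below every FAD IgG mouse, and FAD CD38 was higher in 1 of 6 pools. The 79.3 CPM belonged to the FAD IgG mouse of pool 9. By edgeR's test, the difference was -0.17 (unadjusted p = 0.195) without the wells of high ribosomal share, and -0.21 (unadjusted p = 0.148) without those of high choroid plexus level. In cortex Insig1 had 43.1, 55.4 and 70.5 CPM in FAD CD38 mice and 48.4, 54.5 and 101 CPM in FAD IgG mice, with medians alike and a log2 fold change of -0.14 (95% interval -0.44 to 0.16).

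Srebf1 had 14.0, 22.0 and 28.1 CPM in FAD CD38 hippocampi and 22.98, 27.6 and 29.2 CPM in FAD IgG hippocampi. Here too 4 of 7 FAD CD38 mice lay below every FAD IgG mouse and 1 of 6 pools ran higher, but the log2 fold change of -0.22 had an interval of -0.48 to 0.05 and an adjusted p of 0.9998. In cortex it had 11.4, 18.02 and 20.5 CPM in FAD CD38 mice and 14.95, 17.2 and 26.3 CPM in FAD IgG mice (-0.17, interval -0.57 to 0.23). Stard4 had 12.5, 15.7 and 26.2 CPM in FAD CD38 hippocampi and 13.9, 19.0 and 22.9 CPM in FAD IgG hippocampi (-0.08, interval -0.40 to 0.25), with 19.8, 25.1 and 37.9 CPM in FAD CD38 cortices against 16.8, 23.8 and 27.5 CPM in FAD IgG cortices (0.14, interval -0.20 to 0.49). Each of these intervals spans 0 and leaves room for a change in either direction. Over all members the intervals reached down to -0.61 and up to 0.52 in cortex. In hippocampus they reached -1.199 and 0.87, both from Idi1.

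**Figure D3:**
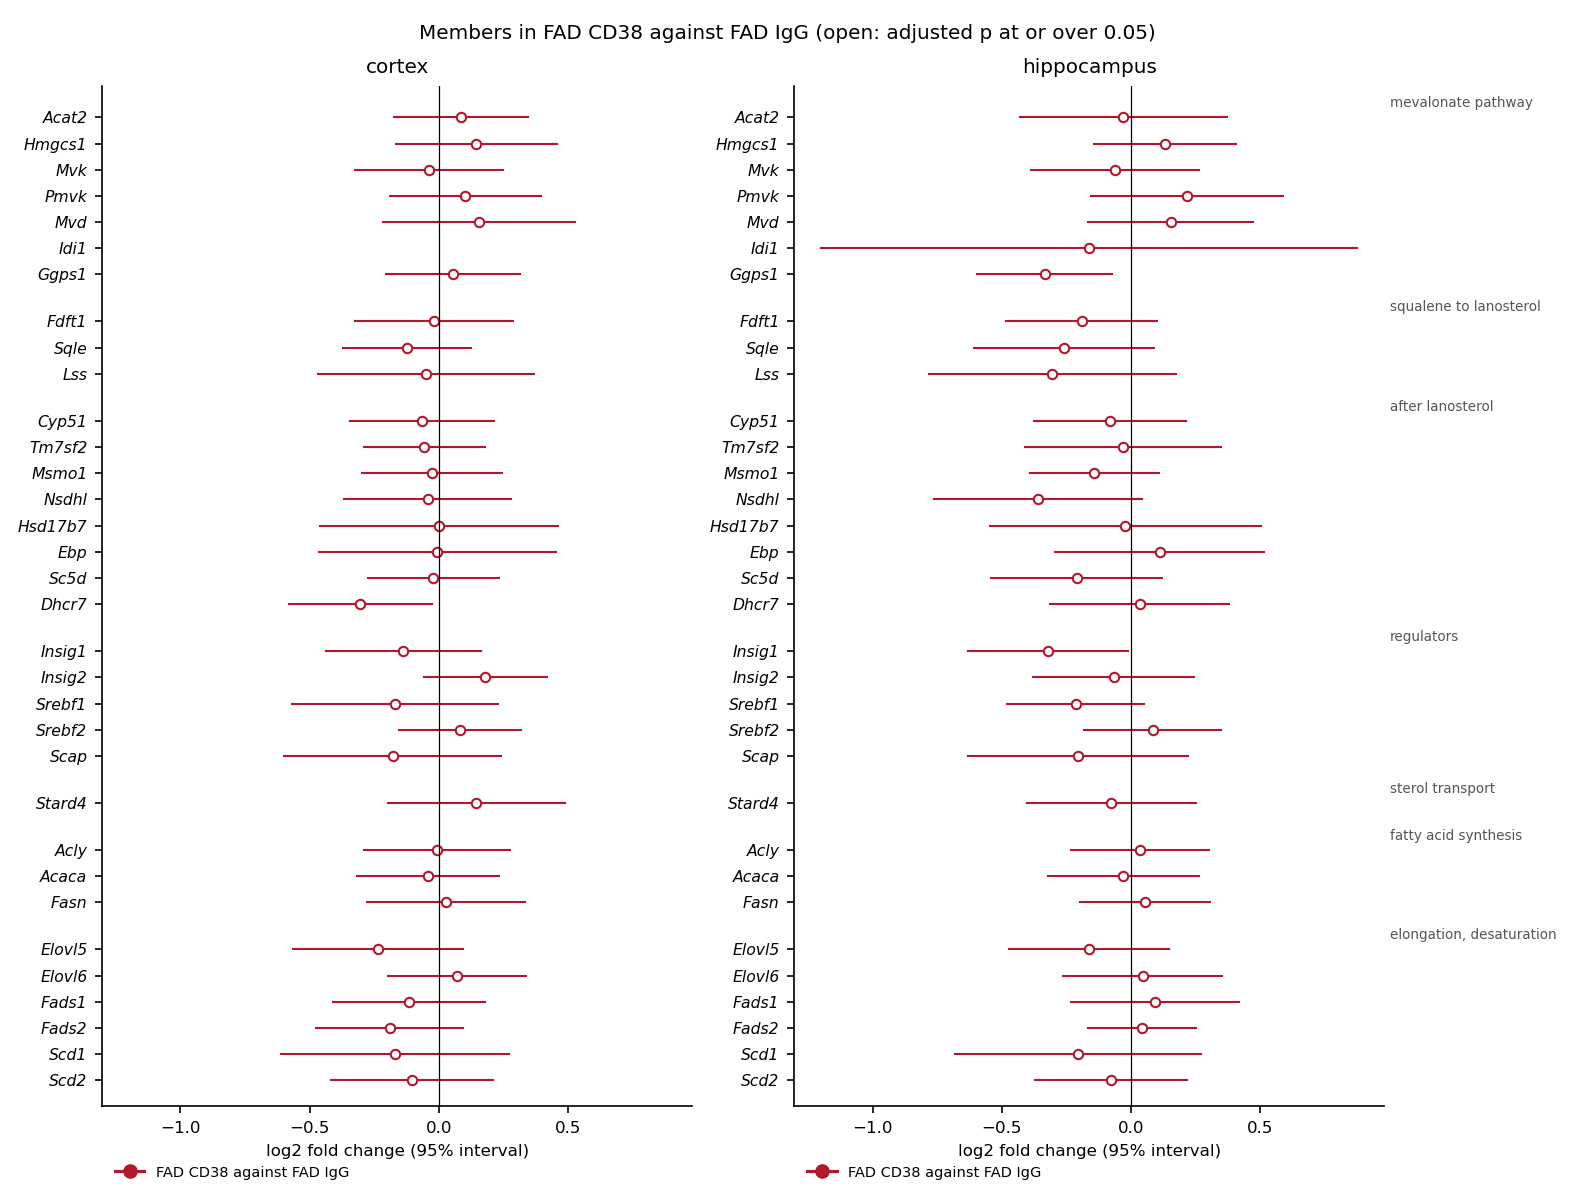
Log2 fold changes of each member in FAD CD38 against FAD IgG mice with 95% intervals, cortex and hippocampus; filled points would mark calls at an adjusted p of 0.05. No point is filled, and the estimates lie between -0.36 and 0.22.

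FAD CD38 mice were also set against WT mice, the same WT mice as above, so the 2 contrasts share them and agreement between them carries no weight of its own. In cortex 3 of 32 members rose, where 3.3% of all genes did, and in hippocampus 3 of 33, where 4.56% of all genes did. At an unadjusted p under 0.05 stood 10 of 32 members in cortex (18% of all genes) and 12 of 33 in hippocampus (17.7% of all genes). The median log2 fold change was 0.08 in cortex, beside 0.01 over all genes, and 0.21 in hippocampus, beside 0.01, with 21 and 25 members above 0. Of all genes, 52.5% lay above 0 in cortex and 51.5% in hippocampus. Voom with sample quality weights called 5 members in cortex, where it called 8.84% of all genes, and 14 in hippocampus, 1 of them, Ggps1, as lower, where it called 21.7%. A fit of these 2 groups alone called 1 in hippocampus, with 3.07% of all genes.

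Stard4 had 19.8, 25.1 and 37.9 CPM in the lowest, median and highest FAD CD38 cortex, against 11.4, 15.4 and 18.4 CPM in WT cortices. Every FAD CD38 mouse lay above every WT mouse, all 7 pools ran higher, and the log2 fold change was 0.73 ± 0.16 (adjusted p = 0.00510). That call was kept in all 21 alternatives, with adjusted p between 0.00118 and 0.0294. In hippocampus Stard4 had 12.5, 15.7 and 26.2 CPM in FAD CD38 mice and 8.83, 11.3 and 16.98 CPM in WT mice (0.56 ± 0.15, adjusted p = 0.0377), and 9 of 21 alternatives lost this call, with adjusted p up to 0.264. Srebf1 had 14.0, 22.0 and 28.1 CPM in FAD CD38 hippocampi and 11.5, 14.7 and 18.2 CPM in WT hippocampi. Of the FAD CD38 mice 6 of 7 stood above all WT mice, and the log2 fold change was 0.64 ± 0.12 (adjusted p = 0.00186), a call kept in all 21 alternatives. In cortex Srebf1 had 11.4, 18.02 and 20.5 CPM in FAD CD38 mice and 6.73, 11.7 and 17.4 CPM in WT mice (0.34 ± 0.18, adjusted p = 0.328).

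Hmgcs1 had 110, 146 and 188 CPM in FAD CD38 hippocampi and 67.9, 101 and 117 CPM in WT hippocampi. Levels in 6 of 7 FAD CD38 mice exceeded all WT mice and all 7 pools ran higher, with a log2 fold change of 0.57 ± 0.13 (adjusted p = 0.00787). With only these 2 groups in the fit the adjusted p was 0.0507, and over the 21 alternatives it reached down to 0.000391. In cortex Hmgcs1 had 109, 137 and 225 CPM in FAD CD38 mice and 102, 120 and 156 CPM in WT mice (0.18 ± 0.14, adjusted p = 0.530). Mvk had 16.6, 32.1 and 34.3 CPM in FAD CD38 cortices and 18.01, 21.8 and 24.6 CPM in WT cortices (0.46 ± 0.13, adjusted p = 0.0430); 6 of 7 mice were above all WT mice and the other below all of them. Acaca had 17.9, 21.4 and 28.4 CPM in FAD CD38 cortices and 11.9, 14.9 and 20.6 CPM in WT cortices (0.49 ± 0.13, adjusted p = 0.0223). The Mvk call was lost in 9 and the Acaca call in 6 of 21 alternatives, among them leaving out the cortex well of high choroid plexus level (adjusted p = 0.0634 for Mvk and 0.0554 for Acaca). In hippocampus neither passed: Mvk had 21.0, 26.9 and 33.5 CPM and Acaca 13.3, 17.5 and 21.9 CPM in FAD CD38 mice, where WT mice had 13.6, 19.2 and 28.3 CPM of Mvk and 9.92, 14.8 and 16.4 CPM of Acaca.

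The other members named for their place in the routes gave no call in this contrast within a region. Mvd had 14.9, 20.1 and 25.1 CPM in FAD CD38 hippocampi and 9.88, 14.3 and 18.8 CPM in WT hippocampi (0.48 ± 0.15, adjusted p = 0.0691), and 15.7, 19.9 and 32.2 CPM in FAD CD38 cortices beside 10.1, 16.02 and 19.6 CPM in WT cortices. Fdft1 had 69.3, 118 and 139 CPM in FAD CD38 hippocampi and 53.9, 93.4 and 128 CPM in WT hippocampi, and 80.9, 164 and 191 CPM in FAD CD38 cortices beside 87.1, 112 and 140 CPM in WT cortices. Fasn had 39.9, 56.2 and 66.0 CPM in FAD CD38 hippocampi and 35.8, 47.0 and 53.6 CPM in WT hippocampi, and 36.0, 57.3 and 78.2 CPM in FAD CD38 cortices beside 29.3, 48.6 and 61.6 CPM in WT cortices. In each of these the FAD CD38 median was above the WT median and the ranges overlapped. Sqle, whose product opens the ring-forming steps, had 46.2, 70.4 and 91.1 CPM in FAD CD38 hippocampi and 33.3, 59.6 and 86.3 CPM in WT hippocampi, and 55.1, 72.2 and 89.2 CPM in FAD CD38 cortices beside 52.9, 69.8 and 87.1 CPM in WT cortices. Srebf2 had 37.1, 41.0 and 49.0 CPM in FAD CD38 hippocampi and 32.2, 40.9 and 44.9 CPM in WT hippocampi, and 46.7, 49.6 and 61.6 CPM in FAD CD38 cortices beside 39.2, 49.2 and 61.6 CPM in WT cortices. The medians of Srebf2 in FAD CD38 and WT mice lay within 1 CPM of each other in both regions.

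Idi1 had 1.61, 4.56 and 7.70 CPM in FAD CD38 hippocampi and 1.15, 2.67 and 8.23 CPM in WT hippocampi, and 2.09, 2.77 and 3.70 CPM in FAD CD38 cortices beside 1.04, 1.43 and 4.57 CPM in WT cortices. Scd2 had 402, 445 and 489 CPM in FAD CD38 hippocampi and 285, 356 and 495 CPM in WT hippocampi, and 356, 430 and 509 CPM in FAD CD38 cortices beside 313, 384 and 560 CPM in WT cortices. Scd1 had 21.7, 30.8 and 35.7 CPM in FAD CD38 hippocampi and 22.0, 24.7 and 54.8 CPM in WT hippocampi, and 24.0, 39.6 and 52.2 CPM in FAD CD38 cortices beside 30.01, 43.4 and 47.1 CPM in WT cortices. For all 3 the FAD CD38 range overlapped that of WT mice in both regions. Without the wells of high ribosomal share or choroid plexus level, Scd2 ranged from 402 to 489 CPM in FAD CD38 hippocampi. The WT range was then 285 to 376 CPM. Fads1 had 86.1, 141 and 171 CPM in FAD CD38 hippocampi and 73.3, 153 and 180 CPM in WT hippocampi, and 146, 175 and 235 CPM in FAD CD38 cortices beside 198, 209 and 274 CPM in WT cortices. Fads2 had 85.4, 127 and 144 CPM in FAD CD38 hippocampi and 84.8, 109 and 119 CPM in WT hippocampi, and 87.8, 102 and 118 CPM in FAD CD38 cortices beside 75.2, 94.2 and 120 CPM in WT cortices. In cortex 4 of 7 FAD CD38 mice had less Fads1 than any WT mouse, and the log2 fold change of -0.28 (95% interval -0.55 to -0.01) had an adjusted p of 0.263.

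Markers moved in this contrast as well: 10 of 10 plaque-associated and 8 of 10 homeostatic microglia markers and 8 of 8 reactive astrocyte markers rose in FAD CD38 hippocampi, with 10 of 10, 8 of 10 and 6 of 7 in cortex. Homeostatic microglia markers summed to 898 to 1597 CPM in FAD CD38 hippocampi and 286 to 440 CPM in WT hippocampi. Oligodendrocyte markers rose in 1 of 12 in each region, with sums of 2526 to 5546 CPM in FAD CD38 hippocampi and 3103 to 5342 CPM in WT hippocampi. Striatal markers summed to 194 to 512 CPM in FAD CD38 cortices and 384 to 806 CPM in WT cortices. None of the 9 was called, but all were lower in FAD CD38 cortices, by log2 fold changes from -1.22 to -0.18 (median -0.75). The part of this dissection difference in the cortical calls was not tested. Between FAD CD38 and FAD IgG mice 0 markers of any list were called. The part of these cells in the members' changes was not tested.

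Averaged over both regions of each mouse, with the mouse as a correlated block in limma voom, more members passed. Against WT, 5 of 33 rose in FAD IgG mice, where 5.93% of all genes did. They were Srebf1 (log2 fold change 0.67 ± 0.11, adjusted p = 1.30e-05), Stard4 (0.59 ± 0.12, adjusted p = 0.000367), Mvk (0.47 ± 0.12, adjusted p = 0.00455), Acaca (0.42 ± 0.10, adjusted p = 0.00221) and Fdft1 (0.41 ± 0.11, adjusted p = 0.0145). Against WT, 7 of 33 rose in FAD CD38 mice, where 5.84% of all genes did. They were Stard4 (0.63 ± 0.12, adjusted p = 0.000113), Srebf1 (0.48 ± 0.11, adjusted p = 0.00170), Mvd (0.46 ± 0.12, adjusted p = 0.00636), Mvk (0.42 ± 0.11, adjusted p = 0.0115), Acaca (0.39 ± 0.09, adjusted p = 0.00359), Hmgcs1 (0.36 ± 0.10, adjusted p = 0.0110) and Fasn (0.29 ± 0.10, adjusted p = 0.0430). Fdft1 lost its call in 3, Fasn in 6, Hmgcs1 in 2 and Mvd in 1 of 9 alternatives, while voom with sample quality weights called 14 members for FAD IgG mice, with 16.6% of all genes, and 16 for FAD CD38 mice, with 22.4%. Between FAD CD38 and FAD IgG mice limma called 0 of 33 members and 0 (0%) of all genes, with 1 member, Insig1 (-0.23, unadjusted p = 0.0365), and 1.84% of all genes under an unadjusted p of 0.05. Without pool 9, limma gave Insig1 a difference of -0.10 (unadjusted p = 0.343).

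A test of whether each effect differed between regions called no member. For FAD IgG against WT, limma called 0 of 33 members and 0.208% of all genes, with 2 members and 8% of all genes under an unadjusted p of 0.05. The change in Hmgcs1 was larger in hippocampus by 0.40 (adjusted p = 0.422) and that in Elovl6 smaller by 0.35 on the log2 scale (a difference of -0.35, adjusted p = 0.485), while the difference for Srebf1 was 0.30 (adjusted p = 0.655). For FAD CD38 against WT it called 0 of 33 members and 0.119% of all genes, with 3 members and 11.6% of all genes under an unadjusted p of 0.05. Those 3 were Elovl6 (-0.39, adjusted p = 0.273), Hmgcs1 (0.40, adjusted p = 0.299) and Dhcr7 (0.39, adjusted p = 0.364). For FAD CD38 against FAD IgG it called 0 of 33 members and 0 (0%) of all genes, with 1 member, Ggps1 (-0.37, unadjusted p = 0.0139), and 2.39% of all genes under an unadjusted p of 0.05. Of the alternatives, voom with sample quality weights called 2 members for FAD IgG against WT, Elovl6 and Hmgcs1, with 2.85% of all genes, and no other alternative called any.

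Hippocampus was set against cortex of the same mouse, whatever its group. With the mouse as a block over 23 mice, 5 of 32 members were higher in hippocampus, where 24% of all genes tested were, and 12 of 32 were lower, where 22.7% of all genes were. The members' median log2 fold change was -0.11, beside 0.02 over all genes. Of the 12 lower members 6 were sterol enzymes: Acat2 (-0.39 ± 0.06), Ebp (-0.33 ± 0.07), Msmo1 (-0.28 ± 0.06), Fdft1 (-0.28 ± 0.06), Tm7sf2 (-0.24 ± 0.06) and Nsdhl (-0.23 ± 0.08) were lower in hippocampus, each in 17 to 20 of 23 mice. Stard4 was lower too (-0.34 ± 0.08, in 20 of 23 mice), as was Acaca (-0.24 ± 0.07, in 18 of 23). Dhcr7 went the other way, higher in hippocampus in 20 of 23 mice (0.36 ± 0.08).

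Paralogs differed in sign between the regions. Srebf1 was higher in hippocampus in 23 of 23 mice (0.42 ± 0.07, adjusted p = 3.21e-06), and Srebf2 was lower in 21 of 23 (-0.31 ± 0.05, adjusted p = 4.99e-06). Insig2 was higher in hippocampus in 20 of 23 (0.28 ± 0.06) and Insig1 lower in 23 of 23 (-0.42 ± 0.06, adjusted p = 3.81e-08). Fads2 was higher in 18 of 23 (0.16 ± 0.06) and Fads1 lower in 23 of 23 (-0.53 ± 0.06, adjusted p = 6.44e-09), the largest of the 32 changes. Scd1 was lower in hippocampus in 19 of 23 (-0.36 ± 0.09), and Scd2 differed by 0.04 (95% interval -0.08 to 0.15). Elovl6 was higher in 18 of 23 (0.25 ± 0.06). Idi1 was not tested here and had the higher level in hippocampus in 18 of 23 mice.

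Of the 17 regional calls 15 held in all 9 alternatives, and Nsdhl and Fads2 lost theirs in 3 each. These alternatives changed the tool, dropped the mouse block or left out single pools. None left out wells of high ribosomal share or choroid plexus level, or added marker levels. Among cell markers, 7 of 7 reactive astrocyte markers were higher in hippocampus (median log2 fold change 0.66), 7 of 7 striatal markers were lower (-2.13), and oligodendrocyte markers were higher in 3 and lower in 2 of 12 (-0.03). Homeostatic astrocyte markers were higher in 4 and lower in 5 of 10 (-0.09). The part of these cells in the regional differences was not tested.

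**Figure D4:**
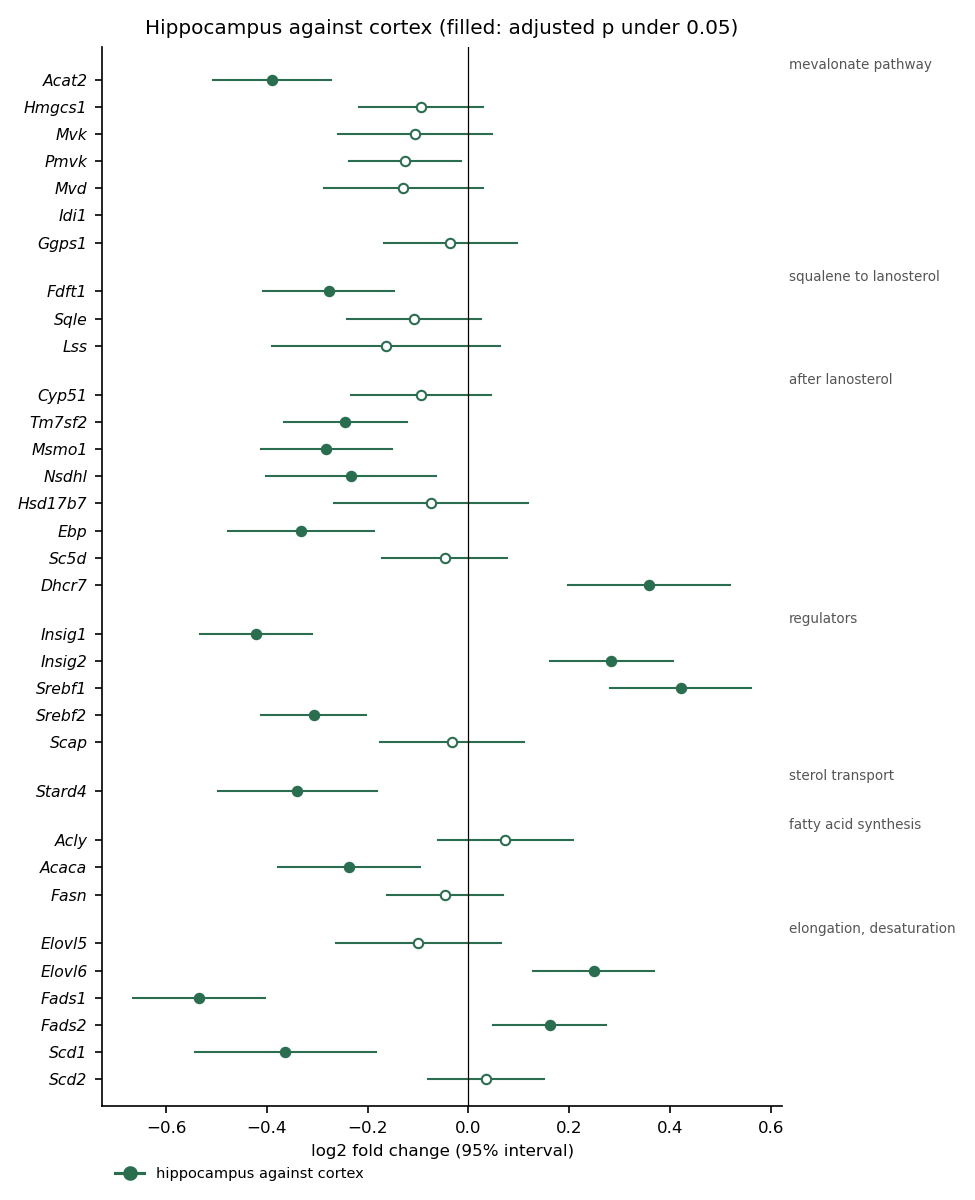
Log2 fold changes of each member in hippocampus against cortex of the same 23 mice, with 95% intervals; filled points passed at an adjusted p of 0.05. Fads1 at -0.53 and Insig1 at -0.42 lie farthest left and Srebf1 at 0.42 farthest right, with Srebf2, Insig2 and Fads2 on the side opposite to their paralogs.

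Whether members rose and fell together from mouse to mouse was examined for 8 pairs in each region, on log2 CPM residuals after group and pool means were removed. The 2 stearoyl-CoA desaturases went together: Scd1 and Scd2 had r = 0.85 in hippocampus (rho = 0.83, 22 wells, permutation test, adjusted p = 0.000320 and 0.000160) and r = 0.78 in cortex (rho = 0.81, 23 wells, adjusted p = 0.000400 and 0.000160). The 2 polyunsaturated desaturases, Fads1 and Fads2, had r = 0.69 in hippocampus (rho = 0.73, permutation test, adjusted p = 0.000736 and 0.000480) and r = 0.71 in cortex (rho = 0.74, adjusted p = 0.000480 for both). Fasn and Scd2 ran opposite to each other in cortex, with r = -0.72 (rho = -0.79, permutation test, adjusted p = 0.000480 and 0.000213), while in hippocampus r was -0.39 (rho = -0.45, adjusted p = 0.156 and 0.0901). The difference between the regions was not tested.

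The ribosomal share of the wells, treated in the same way on a log2 scale, went with several of these genes over 22 tests. The part of the mitochondrial share in these relations was not tested. Scd2 had r = 0.89 with it in hippocampus (rho = 0.78, permutation test, adjusted p = 5.50e-05 and 0.000165) and r = 0.92 in cortex (rho = 0.905, adjusted p = 5.50e-05 and 7.33e-05), or 0.79 and 0.90 without the 2 wells of most extreme share. Scd1 had r = 0.86 in hippocampus and 0.71 in cortex (rho = 0.80 and 0.71), while Fasn had r = -0.61 in hippocampus and -0.77 in cortex (rho = -0.58 and -0.77), with adjusted p of at most 0.00444 for r and 0.0116 for rho (permutation test). Idi1 had r = 0.87 in hippocampus and 0.64 in cortex, Fdft1 -0.58 and -0.77, and Sqle -0.71 and -0.49 (permutation test, adjusted p at most 0.0315). By rho, Fdft1 in hippocampus and Sqle in cortex did not pass (permutation test, adjusted p = 0.086 and 0.0883). Fads1 (r = -0.80) and Fads2 (r = -0.49) passed in hippocampus only, with 0.08 and 0.25 in cortex. Acaca, Hmgcs1 and Insig1 did not pass in either region. With the ribosomal share as a further term, an alternative chosen after seeing the data, r for Fasn with Scd2 was -0.05 in cortex (permutation test, adjusted p = 0.870) and 0.44 in hippocampus (adjusted p = 0.105). For Scd1 with Scd2 it was 0.35 in hippocampus (permutation test, adjusted p = 0.201) and 0.45 in cortex (adjusted p = 0.105), so neither pair passed in either region. With only the wells of high ribosomal share left out, r was -0.74 for Fasn with Scd2 in cortex, and 0.54 in hippocampus and 0.71 in cortex for Scd1 with Scd2. Fads1 with Fads2 passed in both with that term, at r = 0.56 in hippocampus (permutation test, adjusted p = 0.0315) and 0.72 in cortex (adjusted p = 0.00192).

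Without the 2 wells farthest from the median of the first gene, r stayed at 0.75 in hippocampus and 0.74 in cortex for Scd1 with Scd2, at 0.54 and 0.67 for Fads1 with Fads2, and at -0.80 for Fasn with Scd2 in cortex. Hmgcs1 and Sqle had r = 0.51 in cortex (permutation test, adjusted p = 0.0352), but rho was 0.44 (adjusted p = 0.0901) and r was 0.36 without the 2 farthest wells. With the ribosomal share as a term, r in cortex was 0.69 (permutation test, adjusted p = 0.00192) and rho 0.675 (adjusted p = 0.00480). In hippocampus their r was 0.38 (permutation test, adjusted p = 0.156), and 0.47 without the 2 farthest wells. Hmgcs1 with Idi1, Insig1 or Fdft1, and Fasn with Acaca, gave no relation that passed in either region, with r from -0.35 to 0.32. All p-values were adjusted over the 16 tests of each coefficient. Wells of a region share pools and their counts share 1 total, and removing group and pool means makes the p-values somewhat too small.

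**Figure D5:**
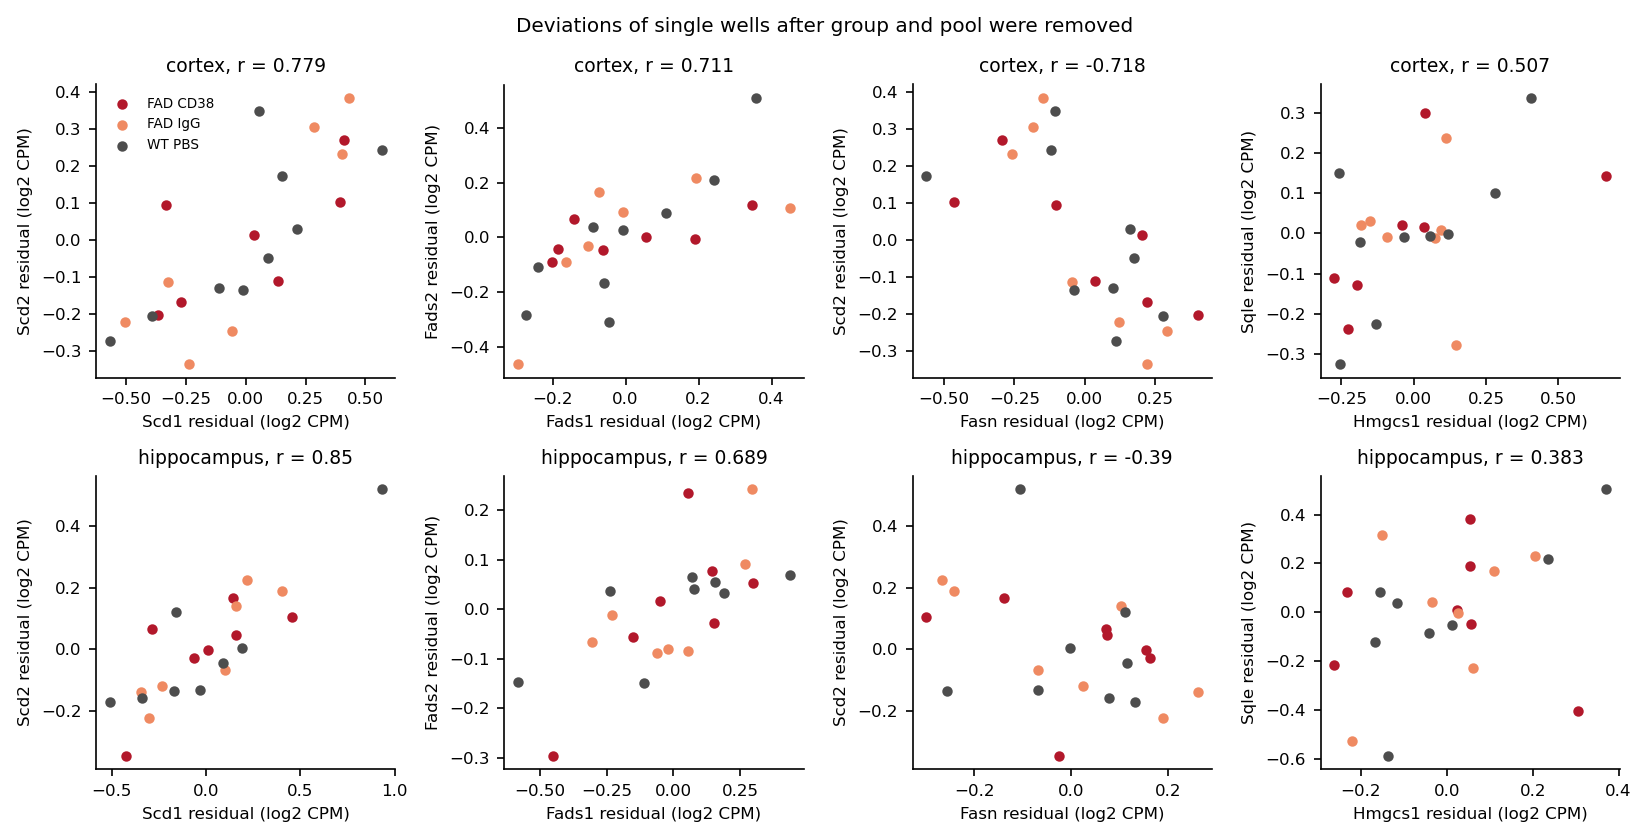
Residuals of log2 CPM after group and pool means were removed, for Scd1 with Scd2, Fads1 with Fads2, Fasn with Scd2 and Hmgcs1 with Sqle, 1 point a well, in both regions. Points rise along the diagonal for Scd1 with Scd2 (r = 0.85 in hippocampus and 0.78 in cortex) and fall for Fasn with Scd2 in cortex (r = -0.72); with the ribosomal share as a further term these were 0.35, 0.45 and -0.05.

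Other lipid genes were followed in lists beside the members. Of a list of sterol efflux, esterification and oxysterol genes, 5 of 17 tested rose in FAD IgG hippocampi against WT and 4 of 18 in FAD IgG cortices, beside the 4.48% and 3.34% of all genes given above. Npc2, which passes cholesterol out of lysosomes, rose by 1.21 ± 0.12 on the log2 scale in FAD IgG hippocampi (adjusted p = 4.73e-07) and by 0.93 ± 0.13 in FAD IgG cortices (adjusted p = 1.49e-05). Abca1, the exporter that loads apolipoproteins with cholesterol, rose by 1.11 ± 0.22 and Soat1, which esterifies cholesterol, by 1.05 ± 0.26 in FAD IgG hippocampi. In cortex the lysosomal lipase Lipa (0.65 ± 0.17) and Soat1 (0.81 ± 0.21) rose. In FAD CD38 mice against WT, 4 of 17 rose in hippocampus, led by Npc2 (1.25 ± 0.11), Abca1 (1.09 ± 0.21) and Soat1 (0.90 ± 0.25), and 1 of 18 in cortex, Npc2 (0.77 ± 0.12). Of all genes, 4.56% rose in that contrast in hippocampus and 3.3% in cortex.

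Of 18 further sterol synthesis and SREBP control genes, 15 were tested in each region, and 1 rose in FAD IgG hippocampi and 2 in FAD IgG cortices, among them Cyb5r3, a reductase that feeds electrons to sterol and fatty acid oxidation (0.54 ± 0.13 in cortex, adjusted p = 0.0175). In FAD CD38 mice 1 of 15 rose in hippocampus and 0 of 15 in cortex. Of 30 further fatty acid synthesis and activation genes, Hacd4, of the dehydratase family of chain elongation, was the 1 of 26 that rose in FAD IgG hippocampi (1.75 ± 0.29). In FAD IgG cortices 2 of 27 rose, Mlxipl, a carbohydrate-responsive transcription factor (1.53 ± 0.31), and Hacd4 (0.95 ± 0.27). Hacd4 was also the single call of that list in FAD CD38 mice, at 1.56 ± 0.28 in hippocampus and 1.12 ± 0.26 in cortex. Against WT, 4.48% of all genes rose in FAD IgG hippocampi and 3.34% in FAD IgG cortices, with 4.56% and 3.3% in FAD CD38 mice. A single call among 26 or 27 genes is near these shares. Between FAD CD38 and FAD IgG mice these 3 lists gave 0 calls in either region.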

How the data were processed

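The authors deposited a table of raw counts per gene and well, with no normalization. The submitters' processing notes name STAR 2.5.3a and bcl2fastq 2.17; genome build, annotation and counting tool were not given in the sources used here. From these counts, each region was fitted with edgeR 4.0.16 in R 4.3.3 (TMM factors, robust quasi-likelihood test, genes filtered by filterByExpr at 10 counts and 15 over all wells), with the 3 groups in 1 model and the library pool as an additive term. A call is a Benjamini-Hochberg adjusted p under 0.05 over all genes tested, 12968 in cortex and 12728 in hippocampus. Means over both regions, and the difference between regions, came from limma 3.58.1 (voom, mouse as a block, correlation 0.256, 13447 genes). Hippocampus was set against cortex in edgeR with the mouse as a block (12434 genes). DESeq2 1.42.0 was an alternative. CPM are counts scaled to a common total per well. The fits were tested on simulated data.

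Members and lists were chosen with earlier results of these data known. All 34 members are accounted for; values by mouse are given for members called in a group comparison and for 11 members fixed by name, and other lists name up to 3 called genes of smallest p. Some genes that meet this rule are not reported here. Nothing in the labels says that mice came from separate litters or cages, so p-values measure the spread between these mice. Precision rested on the spread between mice as well as on total counts of 1270918 to 5101368 per well. No 2 wells of a group agreed within sampling noise.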

Additional observations from a re-analysis of the deposited data

Results flagged for a closer look

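In 8 of 96 sets of mice (16 members, 2 regions, 3 groups) 1 mouse stood apart from the rest of its group by Dixon's test at the 95% level, where chance gives about 1 in 20. In hippocampus 3 of the 8 came from 1 WT mouse of pool 8, whose well had the ribosomal share of 17.2%. It had the lowest Sqle (33.3 CPM, nearest 56.4) and the lowest Fads1 (73.3 CPM, nearest 128) of WT hippocampi, and the highest Scd1 (54.8 CPM, nearest 26.7). Another 2 came from 1 FAD CD38 mouse of pool 7, whose hippocampal well had choroid plexus markers at 15610 CPM. It had the lowest Fasn (39.9 CPM, nearest 54.9) and the lowest Fads1 (86.1 CPM, nearest 137) of FAD CD38 hippocampi. The part of either well property in these values was not tested.

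The other 3 were single values. Mvk was lowest in 1 FAD CD38 cortex of pool 5 (16.6 CPM, nearest 25.9). Fdft1 was lowest in 1 FAD IgG hippocampus of pool 6 (99.1 CPM, nearest 131). Fads2 was lowest in 1 FAD IgG cortex of pool 5 (74.7 CPM, nearest 104.5).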

How the results depend on the processing

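Over 40 called results of single members, 492 alternative values kept the call in 424 cases, lost it in 68 and reversed it in 0. For FAD IgG against WT in hippocampus (2 members called), DESeq2, leaving out mitochondrially encoded genes, leaving out wells of high ribosomal share, or assigning the conflicting mouse as in the sample sheet each gave 4. Assigning it as in its well name gave 5, leaving the pool out of the model 6, voom with sample quality weights 16 and the astrocyte covariate 1. For FAD CD38 against WT in hippocampus (3 called), leaving out the pool term or the wells of high ribosomal share gave 5, fitting only these 2 groups 1 and voom with quality weights 14; in cortex (3 called) those weights gave 5. Over both regions the weights gave 14 for FAD IgG (5 called) and 16 for FAD CD38 (7 called), and 2 for the regional difference of FAD IgG (0 called); leaving out the pool term gave 10 for FAD IgG. The cause was not tested. Leaving out 1 pool at a time gave 0 to 4 members for FAD IgG in cortex (0 without pool 9), 1 to 5 in hippocampus (1 without pool 9 or 11, 5 without pool 8) and 4 to 10 over both regions (10 without pool 8). It gave 1 to 2 for FAD CD38 in cortex, 2 to 6 in hippocampus (6 without pool 8) and 5 to 8 over both regions, and 15 to 18 for hippocampus against cortex. The share of all genes called changed with the setting as well. It is given above for DESeq2, voom with sample quality weights and the fit of 2 groups. For the other settings the counts of members stand without that share, so they do not show a change particular to the members. FAD CD38 against FAD IgG stayed at 0 in all alternatives run. The astrocyte covariate, leaving out wells of high choroid plexus level, leaving out pools in fits over both regions, and both ribosomal alternatives of the correlations were chosen after seeing the data. No paired analysis was possible because mice of different groups share pools, not animals, and the pool was already in the model. Among correlations, the ribosomal share as a term turned Hmgcs1 with Fdft1 in hippocampus to -0.038 and Fasn with Scd2 there to 0.44; leaving out wells of high share turned Hmgcs1 with Insig1 in cortex to -0.014 and Hmgcs1 with Fdft1 in hippocampus to -0.16, none of these past the threshold before or after. Idi1 had 2 to 33 counts per well.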
